A study of Mus musculus with 14 samples.

Results

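The histone genes in polyA RNA of mouse embryonic stem cells (ESCs) are described here, 60 genes of the 22376 listed in the RNA-seq table. Members were chosen by name, with no measured value in the choice: 50 genes carried a histone name in the deposited table (the H1f, H2ac, H2bc, H3c, H4c, H2af and H3f3 forms), and 10 more carried one under their GENCODE vM21 name. Those 10 were H2aj, H2aw, H2ax, H2az1, H2az2, H2bu2, H4f16, Macroh2a1, Macroh2a2 and Macroh2a3. By their vM21 names, 44 belonged to the replication-dependent genes (43 protein-coding) and 15 to the polyadenylated variants (10 protein-coding), and H2ax was kept apart from both. A further 31 annotated histone genes were not in the table, 26 of them replication-dependent, and were not analysed here.

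Replication-dependent histone genes supply the core histones and the linker histone H1 for new chromatin in S phase. They lack introns, and their mRNAs end a few bases past a short conserved stem-loop instead of in a polyA tail. SLBP binds this stem-loop, and the U7 snRNP directs the cut that makes the end. Variant genes, such as H3f3a, H3f3b and H2az1, are transcribed through the whole cell cycle, mostly have introns, and give ordinary polyadenylated mRNAs.

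RNA-seq was done on 6 polyA-selected libraries of ESCs with floxed Drosha alleles (Drosha fl/fl) and CreERT2 at Gt(ROSA)26Sor, 3 untreated (control) and 3 Drosha-deficient. Deficient cells had received 100 nM 4-hydroxytamoxifen for 72 h and were then kept without it for 48 h; the controls received none, so exposure to the drug and loss of Drosha cannot be told apart. Degradome-seq, which sequences polyA-tailed RNA fragments from their 5′ monophosphate, was done on 2 control and 2 Drosha-deficient libraries of the same line. It was also done on 2 control libraries of Dicer fl/fl ESCs transduced with a GFP retrovirus and 2 Dicer-deficient libraries transduced with GFP-Cre, sorted for GFP at day 3 and cultured for 2 more days. All lines grew on inactivated mouse embryonic fibroblasts. Of the fibroblast markers, 8 of 8 were listed, from -1.92 to 4.03 log2 CPM per kb with Col1a1 highest, against 4.96 to 10.88 for 8 of 8 ESC markers; the part of the fibroblasts in the levels below was not tested. At the Degradome-seq site that names Dgcr8, a known Drosha substrate, with the most reads, control libraries held 9.75 to 11.9 RPM (reads-per-million) and Drosha-deficient libraries 1.61 to 2.71 RPM.

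Stem-loop sequences are shown first because their presence differs between the gene classes, as read from the GRCm38 genome for the highest gene with a stem-loop in each replication-dependent family and for H2ax. The regions were chr13:23739505-23739534 (+) for H1f2, chr13:22042476-22042505 (−) for H2ac11, chr13:23684640-23684669 (+) for H2bc4, chr13:23745040-23745069 (−) for H3c3, chr13:22040959-22040988 (−) for H4c9 and chr9:44335233-44335262 (+) for H2ax. Capitals mark the bases of the stem-loop, and each sequence is on the strand of its gene.
H1f2: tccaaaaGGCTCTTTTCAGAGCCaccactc
H2ac11: caacaaaGGCTCTTTTCAGAGCCacctaac
H2bc4: ttccaaaGGCTCTTTTCAGAGCCacccact
H3c3: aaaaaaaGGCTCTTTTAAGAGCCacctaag
H4c9: acttaaaGGCCCTTTTTAGGGCCaccacaa
H2ax: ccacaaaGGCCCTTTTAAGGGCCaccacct

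The histone stem-loop consensus was searched on the gene's strand in the 150 nt after each annotated stop codon. It was found in 42 of the 44 listed replication-dependent genes and in H2ax, and in 0 of the 10 listed protein-coding variants. Entries that encode no protein have no annotated stop codon to start from, so the search could not find it in them. Among 21670 other protein-coding genes, 1 held it, H2bfm, a histone gene outside the naming rule. The 2 listed replication-dependent genes without it were H2bc21 and H2af-ps2, a pseudogene that the search could not cover. Over all annotated histone genes, 66 held the stem-loop in 9 spellings, of which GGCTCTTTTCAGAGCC was found in 41 genes, and it began 22 to 59 nt after the stop codon (median 31.5). A poly(A) signal (AATAAA or ATTAAA) stood in the last 50 nt of an annotated transcript of all 10 listed protein-coding variants. The same held for 13 of the 44 replication-dependent genes (29.5%) and for 81.5% of the other protein-coding genes. Some annotated replication-dependent transcripts end before their stem-loop, so in those this window could not reach a signal past it. H2ax, which marks DNA breaks when phosphorylated, held both features: its single annotated transcript ran 822 nt past the stem-loop and ended with a poly(A) signal.

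**Figure D1:**
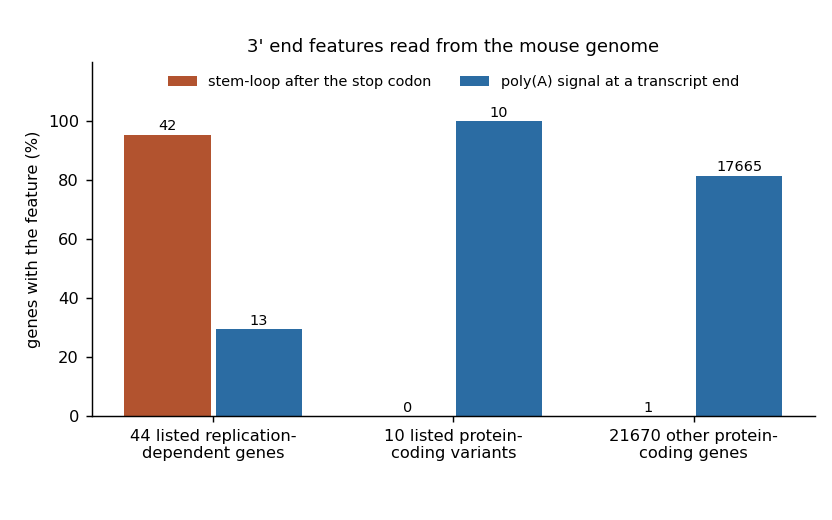
Share of genes (%, y axis) with the histone stem-loop in the 150 nt after a stop codon and with a poly(A) signal in the last 50 nt of an annotated transcript, for 3 gene sets on the x axis; the number over each bar counts genes. The stem-loop stands in 42 of 44 listed replication-dependent genes and 0 of 10 protein-coding variants, and the poly(A) signal in 13 of 44 and 10 of 10.

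The first comparison asks how much of each class is seen in polyA-selected RNA. Levels are the mean log2 counts-per-million (CPM) over all 6 RNA-seq libraries, as deposited, less the log2 length in kb of the longest annotated transcript. They are 1 value a gene with no spread between libraries, so the classes are described and not tested. The replication-dependent genes had a median of -1.29 log2 CPM per kb (range -4.46 to 1.64). The variants had a median of 3.86 (range -3.16 to 7.59), and the 10 protein-coding variants a median of 4.70. The difference between the class medians was 5.15 on the log2 scale, while the median over all 22353 genes with a length was 1.31. Of the replication-dependent genes, 40 of 44 (90.9%) were below 0 log2 CPM, that is 1 CPM, against 34.9% of all genes, 19.7% of all protein-coding genes and 1 of the 10 protein-coding variants. Summed over its genes, the replication-dependent class held 22.2 CPM and the protein-coding variants 1191 CPM.

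**Figure D2:**
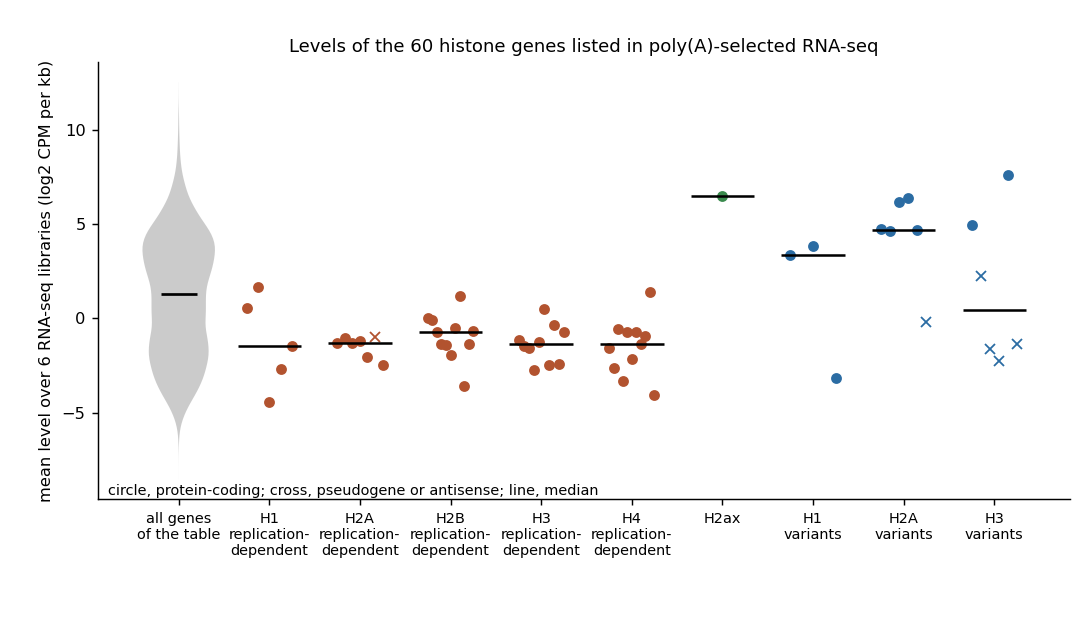
Mean level over the 6 RNA-seq libraries (log2 CPM per kb, y axis) of each of the 60 listed histone genes by class and family, beside the distribution over all genes of the table; circles are protein-coding genes, crosses pseudogenes or antisense genes, and lines medians. The medians of the 5 replication-dependent families lie between -1.44 and -0.70, under the median of 1.31 over all genes, while H2ax and 9 of the 10 protein-coding variants lie above 3.

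Among the variants, the genes of the replacement histone H3.3 lay apart. H3f3b was highest at 7.59 log2 CPM per kb and H3f3a at 4.94, although both encode the same protein. The protein-coding H2A variants lay between them or just below. Macroh2a1, a histone fused to a large macro domain, was at 6.37 and its relative Macroh2a2 at 4.68. The H2A.Z gene H2az2 was at 6.20 and the other, H2az1, at 4.62, while H2aj was at 4.73. The replication-independent linker histone genes were lower, H1f10 at 3.86 and H1f0 at 3.35. The lowest variant was H1f8, the linker histone of oocytes, at -3.16, followed by H3f3aos, which overlaps one end of H3f3a on the other strand, at -2.27 and the pseudogene H3f3a-ps2 at -1.62. The 5 listed variant entries that encode no protein had a median of -1.35 and included H3f3a-ps1 at 2.25. H2ax was at 6.50, above the 44 replication-dependent genes and below the variant H3f3b alone.

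The 44 replication-dependent genes had family medians of -1.44 log2 CPM per kb for H1 (5 genes), -1.28 for H2A (7), -0.70 for H2B (11), -1.37 for H3 (10) and -1.34 for H4 (11). The medians thus lay within 1 log2 unit, and the spread inside each family was wider than that between families. H1f2, a somatic linker histone gene, was highest at 1.64, and H1f1 was at 0.55, yet the same family held the lowest gene, H1f3, at -4.46. The annotated transcript of H1f3 is 7425 nt long, and its level without length was -1.57 log2 CPM. The nucleosome core genes above 0 were H4c9 at 1.41, H2bc4 at 1.17, H3c3 at 0.48 and H2bc11 at 0.0018 log2 CPM per kb. H2bc12 at -0.11 and H3c6 at -0.36 came next. The highest H2A entry was the pseudogene H2af-ps2 at -1.01, followed by H2ac11 at -1.07. The other genes at the low end were H4f16 at -4.09 and H2bc6 at -3.57 log2 CPM per kb. Their longest transcripts are 2863 nt and 2506 nt. Without length they were at -2.57 and -2.25 log2 CPM, where the class median was -2.07.

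The highest replication-dependent genes did not share 1 annotated end. H1f2 and H4c9 each had a transcript that ended with a poly(A) signal, 840 nt and 330 nt past the stem-loop, while the spliced transcript of H2bc4, 1156 nt long, ended with no such signal at a point 8246 nt past it in the genome. H1f1, H3c3, H2bc11 and H2bc12 had transcripts ending no more than 74 nt past it and no signal. Over the class, the 13 genes with a poly(A) signal had a median of -1.94 log2 CPM per kb and the 31 without one -1.22. The 21 genes with a transcript ending over 100 nt past the stem-loop along the genome had a median of -2.17, and the 21 with a stem-loop and no such transcript -1.07. Without length, those last medians were both -2.07 log2 CPM, so the medians differed only after division by transcript length. H2bc21, the protein-coding gene without a stem-loop, was at -1.39 log2 CPM per kb. Sequence is shared widely in this class: 39 of the 44 genes had 100-base windows found in another gene. In 9 of them under 50% of windows were unique, among them H2ac11 (23.8%) and H2bc12 (29.2%), so how reads were split among these copies is uncertain.

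Genes for the machinery had list medians above the median of all genes and above that of all protein-coding genes, 2.53 log2 CPM per kb. Of the list of histone pre-mRNA processing and decay factors, 15 of 17 were matched, with a median of 4.25 log2 CPM per kb (range 1.18 to 5.86). Sympk, a scaffold of the cleavage complex, was at 5.86 and Srrt, which links the cap to 3′ end formation, at 5.77. Cpsf3, the endonuclease that cuts histone pre-mRNA, was at 5.69 and Slbp, which binds the stem-loop, at 5.57. Lsm11 and Zfp473, proteins of U7-dependent processing, were lower at 1.73 and 1.18. Both were under the protein-coding median, and Zfp473 was also under the median of 1.31 over all genes. Of the chaperones and the centromeric histone, 13 of 13 were listed with a median of 4.89. Nasp, a chaperone of H3 and H4, was at 7.67, the CENP-A chaperone Hjurp at 7.25, Rbbp4 at 7.10 and the centromeric H3 variant Cenpa at 6.06. None of the genes matched in either list was below 0 log2 CPM.

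The second comparison asks whether Degradome-seq sites inside histone genes, on either strand, differed between control and Drosha- or Dicer-deficient libraries. No site of either Degradome-seq table named a histone gene: the count was 0 of 3919 in the Drosha table and 0 of 4666 in the Dicer table. By position, 3 Drosha-table sites and 5 Dicer-table sites lay inside histone genes, none of them with a gene name, and 500 nt of flank on each side added none. All lay in polyadenylated H2A variants, in H2aj, H2az1 and H2az2. The 3 Drosha-table sites were all on the strand opposite to their gene, so that table held no site on histone mRNA itself. Of the protein-coding replication-dependent genes, 0 of 43 held a site in either table, and H2ax held none. Of the protein-coding variants, 2 of 10 held a Drosha-table site and 3 of 10 a Dicer-table site, against 13.8% and 14.4% of the 15459 protein-coding genes with a level. Sites on either strand and anywhere in a gene's span were counted, introns included. The sets were not matched for span or level, so these shares do not show a depletion or an excess. The main cluster of 55 replication-dependent genes on chromosome 13, which spans 2.22 Mb, held 6 Drosha-table sites, the nearest 2366 nt from the end of such a gene. A site had to pass the authors' pile-up filter to be listed, so a gene without a site may still have held reads.

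The sequences around the 5 positions are shown because 4 of them lie on the strand opposite to the histone gene. Capitals run from the first base of the reads. They were chr6:136808678-136808707 (−) and chr6:136808690-136808719 (−) for H2aj sites A and B, chr11:6428287-6428316 (+) and chr11:6429097-6429126 (+) for H2az2 sites A and B, and chr3:137865624-137865653 (+) for H2az1, all in GRCm38.
H2aj site A: ctctccgtctTCTTGGGCAGCAGCACGGCC
H2aj site B: ttcaccttctGGCTCTCCGTCTTCTTGGGC
H2az2 site A: gcaaccgtctATGCTCTTCCGCACACCGCA
H2az2 site B: gcccccggctATGGTGGCCTTGATAAGAGA
H2az1: caccgcagagGTAAGCGGGAGTACGCCTGT

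H2aj sites A and B lay antisense to the coding sequence, at bases 136808697 and 136808709 of chromosome 6. An annotated gene of the miRNA type, Gm44364 (chr6:136808543-136808683), begins 14 nt downstream of site A on the same strand. H2az2 site A (base 6428297 of chromosome 11) lay antisense to an untranslated exon and site B (base 6429107) antisense to a coding exon. The site in H2az1 was the only one on the strand of its gene: it was the first base of an intron, at 137865634 of chromosome 3, directly after the end of an exon. The 3 bases before H2aj sites A and B and H2az2 site A were TCT, the last 3 of the RNA linker in its DNA spelling. Over the last 12 linker bases, compared base by base without gaps, H2aj site A matched at 6 and each other site at 5, with or without TCT. This count misses matches shifted by a gap, so it does not show how closely a site resembles the linker. TCT preceded 30.8% of all Drosha-table sites and 17.4% of all Dicer-table sites.

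H2aj site A held 49.0 and 35.2 RPM in the 2 control libraries of the Drosha line and 5.68 and 5.14 RPM in the Drosha-deficient ones. The groups did not overlap, with means of 42.1 ± 9.72 and 5.41 ± 0.378 RPM (SD, n = 2 each). The log2 fold change on the log2(RPM + 0.1) scale was -2.92 (SE 0.34, limma adjusted p = 1.11e-05). H2az2 site A held 5.19 and 5.34 RPM in the controls against 0.774 and 0.695 RPM in the deficient libraries, a log2 fold change of -2.69 (SE 0.41, limma adjusted p = 5.8e-05). H2az2 site B held 2.51 and 2.91 RPM against 0.194 and 0.417 RPM, a log2 fold change of -2.85 (SE 0.50, limma adjusted p = 0.000177). Both control libraries were thus above both deficient libraries at all 3 sites.

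These 3 decreased antisense sites stand on a large background. Of all 3919 Drosha-table sites, 1473 (37.6%) were called decreased and 375 (9.57%) increased at an adjusted p under 0.05 and a log2 fold change past 1.5. The count of decreased sites was 907 without control library 1. At 59.9% of the sites both controls exceeded both deficient libraries, and over all sites the log2 fold changes had a median of -0.93. After centring each library on its median, 871 sites were called decreased and 602 increased, the median over all sites was -0.34, and the 3 histone sites stood at -2.33 (H2aj site A), -2.09 (H2az2 site A) and -2.25 (H2az2 site B), still called.

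The bases before a site moved with this result. Of the 1208 Drosha-table sites preceded by TCT, 981 (81.2%) were called decreased, with log2 fold changes centred on -2.12 (median) and quartiles of -2.60 and -1.66. Of the 2711 other sites, 492 (18.1%) were, with a median of -0.31. H2aj site A and H2az2 site A, both preceded by TCT, lay below the lower quartile of the first class. H2az2 site B is preceded by GCT and belongs to the second, where it lay below the lower quartile of -1.18. Summed over all sites preceded by TCT, the control libraries held 12890 and 10400.1 RPM and the deficient libraries 3207 and 2633 RPM. Whether reads at such sites begin at cleaved RNA ends, or arose where RNA matched the end of the linker, was not tested, nor was the part of these bases in the fall at the histone sites.

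In the Dicer libraries the same positions split by library number and not by genotype. H2aj site A held 19.8 and 4.34 RPM in control libraries 1 and 2 and 12.5 and 6.51 RPM in Dicer-deficient libraries 1 and 2. H2az2 site A held 3.50 and 0.291 RPM against 4.36 and 0.733 RPM, and H2az2 site B held 2.34 and 0.350 RPM against 2.09 and 0.336 RPM. H2aj site B, listed in the Dicer table alone, held 7.50 and 2.01 RPM against 6.12 and 2.29 RPM. At all 4 antisense sites both libraries numbered 1 were above both numbered 2. Sites preceded by TCT as a whole did likewise, with sums of 8145 and 3925 RPM in the controls and 7913 and 4070 RPM in the deficient libraries. The other sites summed to 293275 and 288118 RPM in the controls and 222873 and 230121 RPM in the deficient libraries. For these other sites, both control sums were thus above both deficient sums, and the medians were 3.38 to 3.73 RPM in the 4 libraries. The sense site of H2az1 held 3.94 and 6.41 RPM in the controls and 4.66 and 4.12 RPM in the deficient libraries, without a split by library number.

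**Figure D3:**
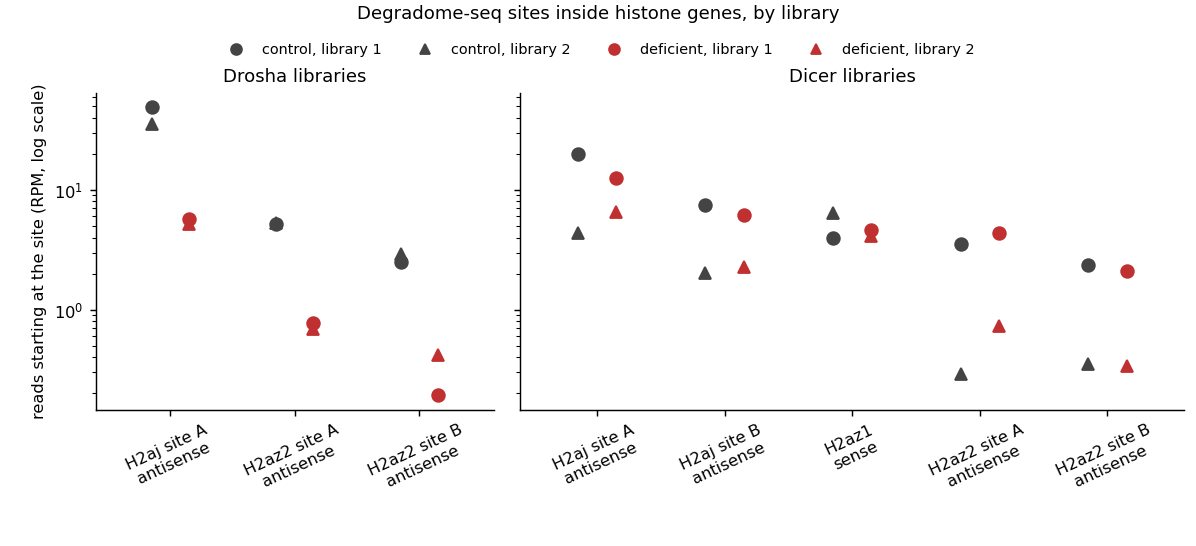
Reads starting at each site inside a histone gene (RPM, log y axis) in the Drosha libraries (left) and the Dicer libraries (right), 1 point a library; grey, control; red, deficient; circles, library 1; triangles, library 2. In the Drosha libraries the controls lie above the deficient libraries at 3 of 3 sites, from 35.2 to 49.0 against 5.14 to 5.68 RPM at H2aj site A, and in the Dicer libraries circles lie above triangles at the 4 antisense sites.

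The log2 fold changes in the Dicer comparison were -0.04 (SE 0.74) at H2aj site A, -0.05 (SE 0.74) at H2aj site B, 0.70 (SE 1.21) at H2az2 site A, -0.10 (SE 1.08) at H2az2 site B and -0.19 (SE 0.40) at H2az1. The groups overlapped at all 5 sites, while at 27.4% of all Dicer-table sites both controls exceeded both deficient libraries. Sites with the reverse order were not counted in that share. For the histone sites, limma's adjusted p lay between 0.834 and 0.988. No site of the whole Dicer table was called by limma (0 of 4666, 0%), with 60 decreased and 54 increased sites past a log2 fold change of 1.5 at an unadjusted p under 0.05. These p-values miss the threshold, which does not show that the sites were the same in both Dicer groups.

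The difference between both effects was tested at the 2595 sites found in both tables, with all 8 libraries in 1 fit. The Drosha effect minus the Dicer effect was -2.88 (SE 0.90, limma adjusted p = 0.0740) at H2aj site A, -3.38 (SE 1.46, adjusted p = 0.126) at H2az2 site A and -2.75 (SE 1.38, adjusted p = 0.176) at H2az2 site B. None passed in this fit, while 44 of all shared sites (1.7%) passed with a lower value. The size of the differences depended on the Dicer libraries. Without Dicer control library 1 they were -3.96, -4.99 and -3.97 at the same sites, and without Dicer control library 2 -1.80, -1.78 and -1.53. Without Dicer-deficient library 1 they were -2.41, -2.17 and -1.58, and without Dicer-deficient library 2 -3.35, -4.59 and -3.91.

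**Figure D4:**
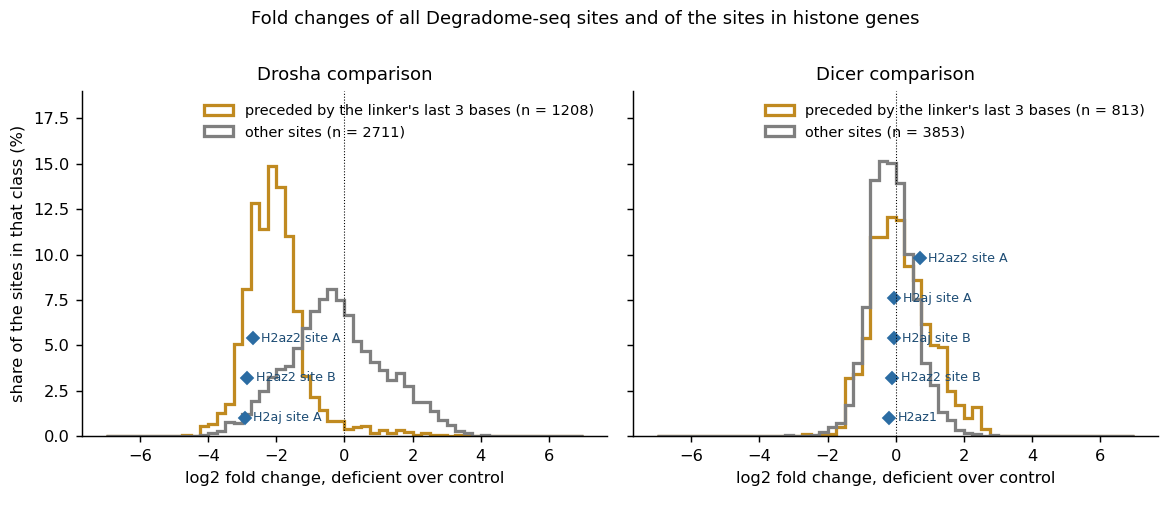
Distribution of log2 fold changes (x axis, deficient over control; y axis, share of the class in %) over all sites of each table, for sites preceded by the last 3 bases of the linker and for the others; blue diamonds mark the sites in histone genes, and their height has no meaning. In the Drosha comparison the first class centres on -2.12 and the other on -0.31, and the 3 histone sites lie between -2.92 and -2.69; in the Dicer comparison the 5 histone sites lie between -0.19 and 0.70.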

How the data were processed

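RNA-seq (6 libraries) and Degradome-seq (8 libraries) of mouse ESCs were analysed from deposited tables in GRCm38 (mm10). Per the labels' processing notes, the tools were Trimmomatic 0.38.0, STAR and edgeR 3.26.1. The RNA-seq level is edgeR's mean log2 CPM a gene over 6 libraries, as the authors deposited it. Degradome-seq values are RPM of reads starting at each pile-up site, deposited by library. The authors' fold changes, F statistics, p-values and FDRs in the same tables were not used, so RNA-seq levels carry no test between genotypes and the loss of Drosha or Dicer mRNA was not checked. The setting for strand in gene counting is not given in the sources used here. Depth was inferred from the spacing of the RPM values: if the smallest step, 0.0289 to 0.0349 RPM, is 1 read, values were scaled to totals of 28.7 to 34.5 M reads, and 3 reads amount to 0.0868 to 0.105 RPM, for counting error only. In 2 of the 8 libraries no site stood at a single step, and which reads the totals include was not checked.

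Lengths, ends and classes came from GENCODE vM21 and sequences from RefSeq's GRCm38.p6, by gene ID. A rule that placed every H1f name among the variants was replaced, since H1f1 to H1f5 are the replication-dependent Hist1h1 genes. Sites were tested with limma 3.58.1 (R 4.3.3) on log2(RPM + 0.1) with a variance trend, over all sites of a table, with Benjamini-Hochberg adjustment. The fit was also run on simulated sites that shared a single spread and had no library effect. That case is simpler than these data, so it does not show how the fit performs on them. Replicates are 2 libraries a group whose separate cultures are not stated, so p-values measure only the spread between these libraries, which may be technical. Named genes are the 8 highest and 3 lowest of each class, the highest of each replication-dependent family and every gene with a site; other genes, such as H2bc21, H1f0 and H3f3a-ps1, were named after their values were seen. The machinery lists are named by their 4 highest genes, with Lsm11 and Zfp473 added after their values were seen. In bulk RNA, fewer cells of a type and less RNA per cell cannot be told apart. Members and lists were chosen with earlier results of these data known. Alternatives were other pseudocounts, centring, filters, thresholds, a replicate block, leaving out each library, and other lengths and gene sets.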

Additional observations from a re-analysis of the deposited data

How the results depend on the processing

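The direction and call of the 3 antisense sites in histone genes held under every alternative run of the Drosha comparison that included them. The run on sites with a gene name held none of them, and each run split by TCT held only the sites of its class. Log2 fold changes ran from -3.16 to -2.33 at H2aj site A and from -2.75 to -1.85 at H2az2 site A. At H2az2 site B they ran from -3.26 to -1.51, the latter with a pseudocount of 1 RPM and close to the threshold of 1.5. The number of decreased Drosha-table sites was 548 with a pseudocount of 1 RPM, 953 with 0.5 RPM, 871 after centring, 223 among sites with a gene name and, chosen after seeing the data, 492 without and 982 with TCT directly upstream; leaving out 1 library gave 907 to 1519. Increased sites numbered 602 after centring, 557 at a log2 fold change threshold of 1, 13 among sites with a gene name and 13 with TCT upstream; leaving out 1 library gave 264 to 463. In the Dicer table, leaving out 1 library gave 0 to 1 decreased and 0 to 13 increased sites, and sites without TCT upstream gave 1 increased site. Leaving out 1 Dicer library turned the direction at each Dicer-table histone site: -1.12 to 1.04 at H2aj site A, -0.98 to 0.87 at H2aj site B, -0.90 to 2.30 at H2az2 site A, -1.32 to 1.12 at H2az2 site B and -0.54 to 0.15 at H2az1, none called. The cause of these shifts was not tested.

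Replicate numbers were shared between groups, and same-numbered libraries deviated together (correlation 0.13 in the Drosha and 0.53 in the Dicer table, 1 value a table), but nothing in the labels pairs them. With a replicate block, 67 Dicer-table sites were decreased and 119 increased, and the difference between both effects, -2.88 at H2aj site A, -3.38 at H2az2 site A and -2.75 at H2az2 site B, passed at limma adjusted p of 8.6e-09, 7.5e-08 and 0.00038. The block changed no call at a histone site within either table. Leaving out 1 library moved these differences from -3.96 to -1.80, -4.99 to -1.78 and -3.97 to -1.53.

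The difference between class medians, 5.15, was 6.45 with no length, 6.01 over protein-coding genes, 5.14 and 5.54 with H2ax among the replication-dependent genes or the variants, 5.54 without germ-cell genes, 5.96 over genes with at least 50% unique windows, and 3.41 over genes of at least 0 log2 CPM, of which the replication-dependent class held 4. Chosen after seeing the data, it was 3.54 over the deposited names and 3.23 with every H1f name among the variants. The replication-dependent genes had a median of -2.07 log2 CPM, where the lowest value of the table was -3.25, so their levels rest on few reads.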
